A study of Rattus norvegicus with 4 samples.

Results

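Synovium of osteoarthritic rats that had received human SyMSCs was compared with synovium that had received human AdMSCs, 1 library against 1. The comparison covered the genes that reached 5 TPM in at least 1 of the injected libraries, which were 10104 of the 17899 rat genes measured. The remaining 7795 genes lay below 5 TPM in both and are not described, apart from a few marker genes named as such. A gene entered on its higher value, so a low gene could enter through the library where it was high, and all counts over the 10104 genes are descriptions. Just inside the threshold were Adarb1, with 5 TPM in AdMSC 1 and 4.24 TPM in SyMSC 1, and Tceal1, with 5 and 3.7 TPM. Just outside were Mdfi, with 4.91 and 4.99 TPM, and Ero1b, with 4.99 and 4.76 TPM.

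The series holds 4 bulk RNA-seq libraries, all labelled as synovium from rats with osteoarthritis. AdMSC 1 and SyMSC 1 came from tissue injected with human cells of the kind each is named after. PBS 1 and PBS 2 received PBS (a buffered salt solution) in place of cells, and their titles place PBS 1 with the Ad library and PBS 2 with the Sy library under the word "mix", which the labels do not explain. Collection followed the cell injection by 1 day. Strain, age, sex, the way osteoarthritis was brought about, the immune status of the hosts, the cell dose and the cell donors were not given in the sources used here. These abbreviations are commonly read as mesenchymal stem cells of adipose tissue and of synovium, which the labels leave unexplained. Nothing in the labels says whether the libraries came from separate animals or from pools.

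Values are TPM, transcripts of a gene per 1000000 transcripts of the library, corrected for transcript length. Levels of different genes can therefore be set beside each other, but they keep no read depth, and the counting error behind a value is unknown. How reads of the human cells were set apart was not given, so rat values of the injected libraries may include human reads. The injected difference is log2(TPM + 1) in SyMSC 1 minus that in AdMSC 1. The added 1 keeps low values from giving extreme ratios and understates the difference of low genes. The PBS difference of the same gene is PBS 2 minus PBS 1. The PBS libraries share a treatment label, so they are the only pair in the series that shows how far libraries of 1 treatment label lay apart. What "mix" means in their titles is not given, so it is unknown whether they were alike in all else or free of human reads. Each group of the comparison holds 1 library, no test was run, and 2-fold (a difference of 1) serves only as a mark of size. In bulk tissue, fewer cells of a type and less RNA per cell cannot be told apart.

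Synovium has a lining of fibroblasts and macrophages that secretes lubricin and hyaluronan into the joint, and a sublining with fibroblasts, vessels, fat, nerves and mast cells. Mesenchymal stem cells are cultured stromal cells that are given into joints for their secreted factors. When cells or particles are placed in a joint, neutrophils and monocytes enter from the blood within a day, drawn by chemokines such as those of the CXC and CC families. Markers of synovium were present in all libraries. Prg4, the lubricin gene of the lining, stood at 4192 TPM in AdMSC 1 and 2448 TPM in SyMSC 1, beside 3930.3 TPM in PBS 1 and 3765 TPM in PBS 2. The collagen gene Col1a1 ranged from 2257 TPM in SyMSC 1 to 12541 TPM in PBS 1, and the keratinocyte list had no gene at 5 TPM in either injected library.

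The injected libraries were close for most genes, and their spread was of the same order as that of the PBS pair. Of the 10104 genes, 150 were at least 2-fold higher in SyMSC 1 (1.48%) and 74 at least 2-fold lower (0.732%), together 224 (2.22%). In the PBS pair 87 genes were at least 2-fold higher in PBS 2 (0.861%) and 96 at least 2-fold lower (0.95%), together 183 (1.81%). The median size of the difference was 0.18 between the injected libraries and 0.15 between the PBS libraries, and 92.4% and 94.7% of genes lay within 1.5-fold. Genes at least 4-fold apart were fewer in the injected pair (31) than in the PBS pair (53). The count of genes 2-fold apart was thus slightly larger between the injected libraries than between the PBS libraries, and the count of genes 4-fold apart smaller. This order depends on the choice of genes by their injected values. With no floor the PBS pair held more genes 2-fold apart (183 higher and 215 lower) than the injected pair (199 and 109).

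**Figure D1:**
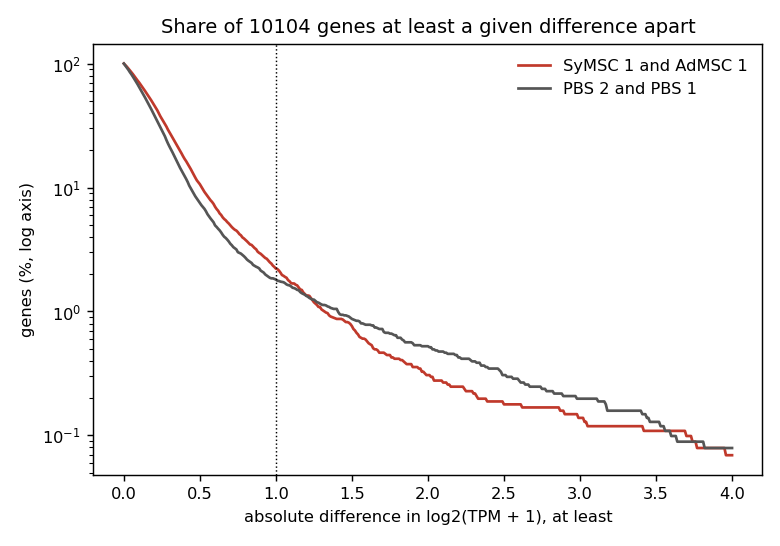
Share of the 10104 genes (log axis, percent) whose difference in log2(TPM + 1) is at least the value on the x axis, for the injected pair and the PBS pair. At the dotted line (2-fold) the shares are 2.22% and 1.81%, and beyond 4-fold (a difference of 2) the PBS pair holds more genes.

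The excess over the PBS pair was largest among genes of middle abundance. Among 4422 genes whose higher injected value was 5 to 20 TPM, 92 were 2-fold apart in the injected pair (2.08%) and 90 in the PBS pair (2.04%). Among 4151 genes at 20 to 100 TPM these counts were 90 (2.17%) and 57 (1.37%). Among 1531 genes at 100 TPM or more they were 42 (2.74%) and 36 (2.35%). SyMSC 1 held more genes slightly below AdMSC 1 than above it: 34.8% of genes had a difference above 0, and the median over all genes was -0.09 (-0.03 in the PBS pair). Across genes, which are not independent replicates, the injected difference and the PBS difference had a Pearson r of 0.16 and a Spearman rho of 0.22.

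Most genes 2-fold apart between the injected libraries were within 2-fold between the PBS libraries, but a smaller share than of all genes. Of the 150 higher in SyMSC 1, the PBS pair was within 2-fold for 104, at least 2-fold higher in PBS 2 for 15 and at least 2-fold lower for 31. Of the 74 lower in SyMSC 1, these numbers were 62, 4 and 8. Over all 10104 genes, only 87 were at least 2-fold higher in PBS 2 (0.861%) and 96 at least 2-fold lower (0.95%). Genes 2-fold apart in the injected pair were thus more often 2-fold apart between the PBS libraries than genes in general. Of the 150, 73 were at least 2-fold above the PBS library of their title in both injected libraries. Of the 74, 40 were at least 2-fold below it in both. The same share over all genes was not computed, so these counts do not set the genes apart from others. Of the 150, 33 reached 100 TPM and 28 have no gene symbol beyond an identifier, and of the 74 these were 9 and 15.

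**Figure D2:**
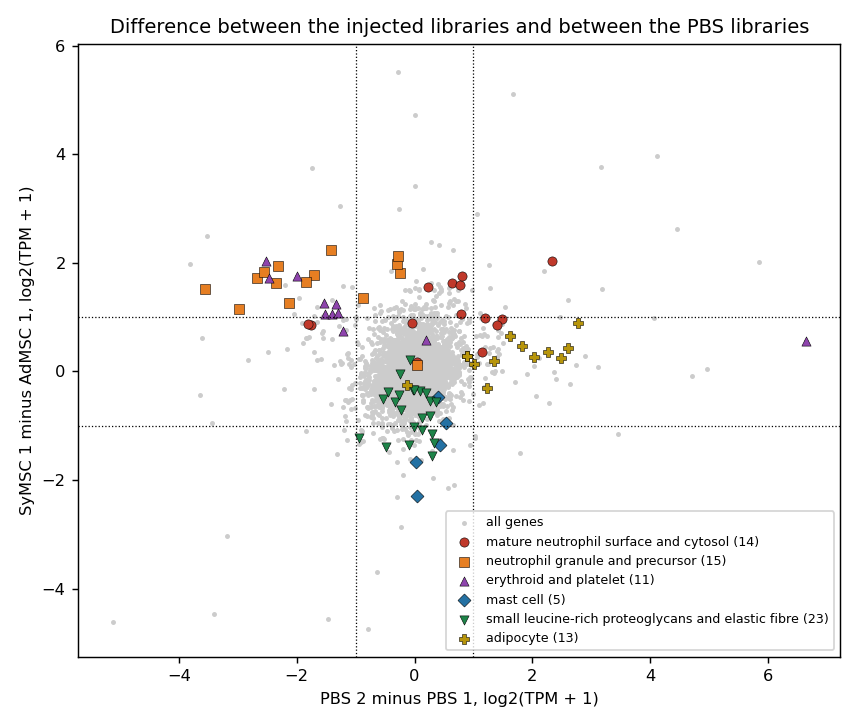
Difference in log2(TPM + 1) between the injected libraries (y axis) against that between the PBS libraries (x axis) for each of 10104 genes, with 6 gene groups coloured and dotted lines at 2-fold. Granule and erythroid genes lie high on the y axis and mostly to the left, adipocyte genes lie to the right near 0 on the y axis, and mast cell and elastic fibre genes lie below 0 on the y axis near 0 on the x axis.

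Several cytokine and chemokine genes were among the genes highest in SyMSC 1 relative to AdMSC 1. Those at least 2-fold higher were the CC chemokine genes Ccl6, Ccl3, Ccl20 and Ccl21, the CXC chemokine genes Cxcl2 and Cxcl6, the cytokine genes Il1b, Osm and Il6, and Nos2, which encodes inducible nitric oxide synthase. They came from lists of 11 CC, 11 CXC, 15 interleukin 1, 12 interleukin 6 and 9 nitric oxide members, where Il33 alone was 2-fold lower. Over all genes 1.48% were this much higher. Unlike the others, Ccl21 lay far below PBS in both injected libraries. Ccl6 (NCBI Gene ID 287910), a chemokine of myeloid cells, stood at 229 TPM in AdMSC 1 and 1086 TPM in SyMSC 1, beside 39.2 TPM in PBS 1 and 62.4 TPM in PBS 2 (difference 2.24, PBS pair 0.66). Ccl3 (NCBI Gene ID 25542), which attracts monocytes and neutrophils, stood at 179 TPM in AdMSC 1 and 696 TPM in SyMSC 1, beside 12.2 TPM in PBS 1 and 30.7 TPM in PBS 2 (difference 1.96, PBS pair 1.26). Both genes were above their PBS libraries in AdMSC 1 as well, and SyMSC 1 was the highest of the 4.

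Promoter sequences are shown for a pair of groups that stood on opposite sides of the comparison, the cytokine and chemokine genes high in SyMSC 1 and the mast cell protease genes low in it. They are the 250 bases before the gene start, 5′ to 3′ on the gene's strand, from RefSeq on the rat build GRCr8. In the first group capitals mark matches to the NF-kB motif, a 10-base pattern with some free positions that was searched on both strands; overlapping matches form 1 run. NF-kB is a transcription factor that many inflammatory genes respond to.
Cxcl2, chr14:17467256-17467505, minus strand: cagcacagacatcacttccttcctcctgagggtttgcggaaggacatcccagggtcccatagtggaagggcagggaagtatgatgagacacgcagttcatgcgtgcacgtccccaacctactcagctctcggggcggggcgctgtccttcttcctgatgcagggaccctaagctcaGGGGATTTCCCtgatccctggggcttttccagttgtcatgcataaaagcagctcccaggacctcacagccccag
Cxcl6, chr14:17596418-17596667, minus strand: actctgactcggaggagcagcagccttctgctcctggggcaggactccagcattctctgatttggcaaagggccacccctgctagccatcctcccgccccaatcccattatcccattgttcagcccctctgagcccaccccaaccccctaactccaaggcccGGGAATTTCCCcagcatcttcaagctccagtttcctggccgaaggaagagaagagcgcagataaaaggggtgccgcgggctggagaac
Il6, chr4:5894576-5894825, minus strand: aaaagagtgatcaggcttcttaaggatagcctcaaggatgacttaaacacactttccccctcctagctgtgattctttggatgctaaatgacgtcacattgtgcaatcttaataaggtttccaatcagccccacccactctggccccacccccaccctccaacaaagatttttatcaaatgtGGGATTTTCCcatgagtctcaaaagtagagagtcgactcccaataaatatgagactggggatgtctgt
Of the 10 cytokine, chemokine and nitric oxide synthase genes, 7 had a promoter in the table. The motif was found in 4 of them, with matches that begin 74 and 73 bases before the start in Cxcl2, 88 and 87 in Cxcl6, 68 in Il6 and 89 in Ccl20. These letters were not found in the same window of Ccl6, Il1b and Ccl21. Ccl3, Osm and Nos2 had no entry. Among all 27457 promoters of this length 6.72% held the motif, and 8.79% of the 8116 promoters of genes in the comparison. A match is a description of the letters and no evidence that the factor was bound.

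The CXC chemokine genes Cxcl1, Cxcl2, Cxcl3 and Cxcl6, whose products act on the neutrophil receptor Cxcr2, were all higher in SyMSC 1 and stood below 5 TPM with PBS. Cxcl2 (NCBI Gene ID 114105) stood at 86.8 TPM in AdMSC 1 and 316 TPM in SyMSC 1, beside 0.23 TPM in PBS 1 and 4.65 TPM in PBS 2 (difference 1.85, PBS pair 2.2). Cxcl6 (NCBI Gene ID 60665) stood at 28.2 TPM in AdMSC 1 and 91.7 TPM in SyMSC 1, beside 1.15 TPM in PBS 1 and 1.19 TPM in PBS 2 (difference 1.66, PBS pair 0.03). For Cxcl6 the PBS libraries were alike, whereas Cxcl2 was also higher in PBS 2 than in PBS 1. Cxcl3 stood at 83.97 and 166 TPM in AdMSC 1 and SyMSC 1, beside 0.37 and 1.99 TPM in PBS 1 and PBS 2 (difference 0.98, PBS pair 1.13), and Cxcl1 at 45.5 and 74.5 TPM in AdMSC 1 and SyMSC 1, beside 1.13 and 4.87 TPM in PBS 1 and PBS 2 (difference 0.7, PBS pair 1.46). Cxcl3 and Cxcl1 thus had differences under 2-fold, each smaller than its PBS difference. Of the other CXC members Pf4 (0.58, PBS pair 0.2) and Cxcl10 (0.36, PBS pair -2.49) were also above 0, and 5 were below 0. The lowest of these was Cxcl12, a stromal chemokine that holds leukocytes in tissue, at 42.5 and 29.8 TPM in AdMSC 1 and SyMSC 1, beside 210.1 and 235 TPM in PBS 1 and PBS 2 (difference -0.5, PBS pair 0.16). Over the 11 members of the CXC list the median was 0.36 (0.20 in the PBS pair), and over the 11 members of the CC list 0.38 (0.11 in the PBS pair).

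Monocyte chemoattractants of the CC family did not follow Ccl3 and Ccl6. Ccl2, the main ligand of the monocyte receptor Ccr2, stood at 442 TPM in AdMSC 1 and 482 TPM in SyMSC 1, beside 86.5 TPM in PBS 1 and 70.9 TPM in PBS 2 (difference 0.13, PBS pair -0.28). Ccl7, which shares that receptor, stood at 177 and 172 TPM in AdMSC 1 and SyMSC 1, beside 42.9 and 41.1 TPM in PBS 1 and PBS 2 (difference -0.04, PBS pair -0.06). Both were thus higher with either cell source than with PBS and nearly level between the sources. Ccl21, which guides lymphocytes and dendritic cells toward lymph vessels, differed in another way: it stood at 5.75 TPM in AdMSC 1 and 49.3 TPM in SyMSC 1, beside 204 TPM in PBS 1 and 427 TPM in PBS 2 (difference 2.9, PBS pair 1.06). SyMSC 1 was above AdMSC 1, but both lay far below the PBS libraries. Other lymphatic genes did not go with it, since Lyve1 and Pdpn, found on lymphatic vessels and on other synovial cells, had differences of -0.17 and -0.60. Copies of Ccl21 are similar in sequence, so its value is uncertain.

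Il1b (NCBI Gene ID 24494), the interleukin 1 beta gene, stood at 59.8 TPM in AdMSC 1 and 176 TPM in SyMSC 1, beside 3.67 TPM in PBS 1 and 5.98 TPM in PBS 2 (difference 1.54, PBS pair 0.58). Osm, a cytokine of the interleukin 6 family made by myeloid cells, stood at 141 TPM in AdMSC 1 and 329 TPM in SyMSC 1, beside 4.05 TPM in PBS 1 and 6.91 TPM in PBS 2 (difference 1.22, PBS pair 0.65). Il6 stood at 27.3 TPM in AdMSC 1 and 58.4 TPM in SyMSC 1, beside 1.06 TPM in PBS 1 and 1.67 TPM in PBS 2 (difference 1.07, PBS pair 0.37). All 3 were lowest in PBS 1 and highest in SyMSC 1. The gene for the interleukin 1 receptor antagonist, Il1rn, stood at 78.97 and 149 TPM in AdMSC 1 and SyMSC 1, beside 5.13 and 6.78 TPM in PBS 1 and PBS 2 (difference 0.91, PBS pair 0.34), and that for the decoy receptor, Il1r2, at 216 and 423 TPM in AdMSC 1 and SyMSC 1, beside 2.38 and 8.45 TPM in PBS 1 and PBS 2 (difference 0.97, PBS pair 1.48). Agonist and antagonist genes of interleukin 1 were therefore both higher in SyMSC 1. Nos2 (NCBI Gene ID 24599) stood at 81.9 TPM in AdMSC 1 and 234 TPM in SyMSC 1, beside 0.48 TPM in PBS 1 and 1.48 TPM in PBS 2 (difference 1.5, PBS pair 0.74). Arg1, the arginase that uses the same substrate, stood at 141 and 128 TPM in AdMSC 1 and SyMSC 1, beside 6.66 and 6.22 TPM in PBS 1 and PBS 2 (difference -0.14, PBS pair -0.09), so these enzymes of arginine use did not differ alike. Tnf was below the threshold, listed at 0 in AdMSC 1 and at 2.52 TPM in SyMSC 1, beside 1.40 and 2.41 TPM with PBS. Il10 was below it as well, at 0.83 and 2.35 TPM in AdMSC 1 and SyMSC 1, listed at 0 in PBS 1 and at 0.96 TPM in PBS 2.

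Some secreted factors were lower in SyMSC 1. Inhba (NCBI Gene ID 29200), which encodes the activin A subunit, stood at 112 TPM in AdMSC 1 and 40.7 TPM in SyMSC 1, beside 11.1 TPM in PBS 1 and 9.53 TPM in PBS 2 (difference -1.44, PBS pair -0.2). It was above PBS with both sources and highest in AdMSC 1. Il33 (NCBI Gene ID 361749), an alarmin of stromal cells that activates mast cells, stood at 33.5 TPM in AdMSC 1 and 10.1 TPM in SyMSC 1, beside 100.5 TPM in PBS 1 and 108 TPM in PBS 2 (difference -1.63, PBS pair 0.1). F3, the tissue factor gene that starts coagulation, stood at 23.1 TPM in AdMSC 1 and 7.84 TPM in SyMSC 1, beside 21.4 TPM in PBS 1 and 34.3 TPM in PBS 2 (difference -1.44, PBS pair 0.65). The PBS libraries were within 2-fold for these 3 genes. Tnfaip6, whose product binds hyaluronan and is made in inflamed tissue, stood at 159 and 115 TPM in AdMSC 1 and SyMSC 1, beside 42.4 and 39.2 TPM in PBS 1 and PBS 2 (difference -0.47, PBS pair -0.11).

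Neutrophil genes formed the list with the highest median difference among the 53 lists with at least 5 members. Of 28 listed genes 22 reached 5 TPM, 11 of them were at least 2-fold higher in SyMSC 1, none at least 2-fold lower, and all 22 had a difference above 0. The median was 1.12, against -0.15 in the PBS pair, where 5 members were at least 2-fold higher and 7 lower. It was 0.96 with a pseudocount of 5 and 0.97 with a floor of 20 TPM, both under 2-fold. Summed over the list, neutrophil genes made 3916 TPM in AdMSC 1, 7548 TPM in SyMSC 1, 543 TPM in PBS 1 and 304 TPM in PBS 2. G0s2 (NCBI Gene ID 289388), a lipolysis inhibitor abundant in neutrophils, stood at 134 TPM in AdMSC 1 and 549.6 TPM in SyMSC 1, beside 4.42 TPM in PBS 1 and 26.5 TPM in PBS 2 (difference 2.03, PBS pair 2.34). Clec4e, a receptor for mycobacterial and dead-cell ligands, stood at 69.97 TPM in AdMSC 1 and 219.6 TPM in SyMSC 1, beside 1.42 TPM in PBS 1 and 2.77 TPM in PBS 2 (difference 1.64, PBS pair 0.64). The alarmin genes S100a8 and S100a9 had smaller differences: S100a8 stood at 628 and 1149 TPM in AdMSC 1 and SyMSC 1, beside 109 and 30.7 TPM in PBS 1 and PBS 2 (difference 0.87, PBS pair -1.8). S100a9 stood at 845 and 1521 TPM in AdMSC 1 and SyMSC 1, beside 96.7 and 27.8 TPM in PBS 1 and PBS 2 (difference 0.85, PBS pair -1.76). Csf3r, which encodes the G-CSF receptor that sustains neutrophils, was nearest to level of those named, at 418 and 538 TPM in AdMSC 1 and SyMSC 1, beside 4.73 and 11.7 TPM in PBS 1 and PBS 2 (difference 0.36, PBS pair 1.15). The list therefore did not differ as a block.

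The neutrophil genes were split into surface and granule genes, by lists chosen after the values were seen, which cannot support the pattern. Surface and cytosol genes of mature neutrophils (14 of 16 at 5 TPM) had a median difference of 0.97, with 6 at least 2-fold higher, and a PBS median of 0.78. Their summed level was 3426 TPM in AdMSC 1 and 6569 TPM in SyMSC 1, against 271 and 175 TPM in PBS 1 and PBS 2. Granule genes, many of which are transcribed in marrow precursors and no longer in mature cells, had a median of 1.73 (15 of 17 at 5 TPM, 14 at least 2-fold higher). Their PBS median was -1.83, with 10 members at least 2-fold lower in PBS 2. Their summed level was 227 TPM in AdMSC 1, 788 TPM in SyMSC 1, 413 TPM in PBS 1 and 106 TPM in PBS 2.

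The granule genes fell into different orders of the libraries: of the 15 members 8 were highest in PBS 1 and 7 in SyMSC 1. Ngp (NCBI Gene ID 301026), neutrophilic granule protein, stood at 10.6 TPM in AdMSC 1 and 32.2 TPM in SyMSC 1, beside 80.8 TPM in PBS 1 and 5.97 TPM in PBS 2 (difference 1.53, PBS pair -3.55). Mpo, the myeloperoxidase gene of primary granules, stood at 1.98 TPM in AdMSC 1 and 9.23 TPM in SyMSC 1, beside 16.8 TPM in PBS 1 and 4.47 TPM in PBS 2 (difference 1.78, PBS pair -1.7). Camp, which encodes the antimicrobial peptide cathelicidin, stood at 3.92 TPM in AdMSC 1 and 14.2 TPM in SyMSC 1, beside 24.4 TPM in PBS 1 and 4 TPM in PBS 2 (difference 1.63, PBS pair -2.35). PBS 1 was the highest library for these 3, SyMSC 1 the second, and AdMSC 1 and PBS 2 were low. The defensin genes Np4 (1.73, PBS pair -2.67) and Defa5 (1.94, PBS pair -2.31) had the same order of libraries; they belong to a family of similar copies, so their values are uncertain. Elane, the neutrophil elastase gene of primary granules, stood at 8.31 TPM in AdMSC 1 and 21.3 TPM in SyMSC 1, beside 11.6 TPM in PBS 1 and 1.88 TPM in PBS 2 (difference 1.26, PBS pair -2.12). Mmp8, neutrophil collagenase, stood at 16.4 TPM in AdMSC 1 and 81.2 TPM in SyMSC 1, beside 7.68 TPM in PBS 1 and 2.25 TPM in PBS 2 (difference 2.24, PBS pair -1.42). Lcn2, which binds bacterial siderophores, stood at 131 TPM in AdMSC 1 and 463 TPM in SyMSC 1, beside 57.6 TPM in PBS 1 and 48.7 TPM in PBS 2 (difference 1.81, PBS pair -0.24). For Elane, Mmp8 and Lcn2, SyMSC 1 was the highest of the 4 libraries.

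Most erythroid genes were highest in PBS 1, with SyMSC 1 above AdMSC 1. Of 15 genes on the erythroid and platelet list 11 reached 5 TPM, 8 were at least 2-fold higher in SyMSC 1 and none lower, with a median of 1.08 (0.996 with a pseudocount of 5, just under 2-fold). In the PBS pair the median was -1.41, with 9 members at least 2-fold lower in PBS 2 and 1 higher. Hba1, an alpha globin gene, stood at 4918 TPM in AdMSC 1 and 10295 TPM in SyMSC 1, beside 20161 TPM in PBS 1 and 7064 TPM in PBS 2 (difference 1.07, PBS pair -1.51). Slc4a1, the band 3 anion exchanger of red cells, stood at 0.65 TPM in AdMSC 1 and 5.78 TPM in SyMSC 1, beside 9.22 TPM in PBS 1 and 0.79 TPM in PBS 2 (difference 2.04, PBS pair -2.51). Alas2, which makes the first step of heme synthesis in red cell precursors, stood at 4.15 TPM in AdMSC 1 and 11.4 TPM in SyMSC 1, beside 20.01 TPM in PBS 1 and 6.22 TPM in PBS 2 (difference 1.27, PBS pair -1.54). PBS 1 was the highest library for each of them, and SyMSC 1 the second. Summed over the list the level was 7288 TPM in AdMSC 1, 15288 TPM in SyMSC 1, 28279 TPM in PBS 1 and 10307 TPM in PBS 2. PBS 1 was the highest library for 9 of the 11 members, the exceptions being Pf4 and LOC689064, and 10 of the 11 had a larger difference in the PBS pair than in the injected pair. The same held for 8 of the 15 granule genes. The part of erythroid and granule transcripts in the other differences was not tested. When the genes of the neutrophil and erythroid lists were left out, 122 genes were at least 2-fold higher in SyMSC 1 and 74 lower. Globin genes have near-identical copies, so reads may be divided among them.

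**Figure D3:**
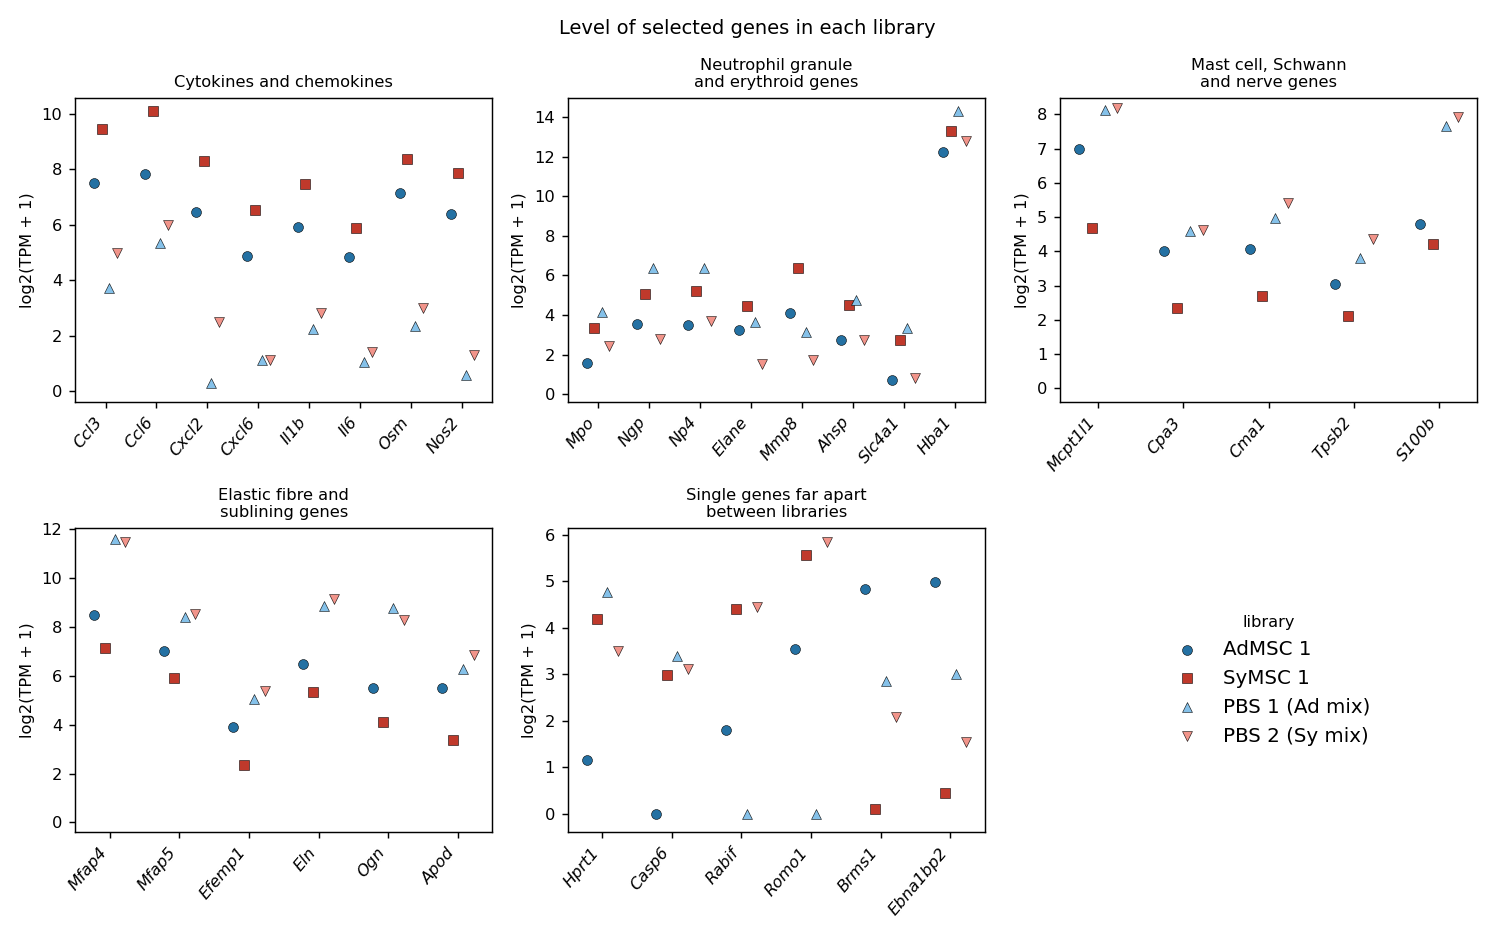
Level in log2(TPM + 1) of selected genes (x axis) in each of the 4 libraries, 1 point per library, in 5 groups. SyMSC 1 is the highest library for the cytokine and chemokine genes shown, PBS 1 for Mpo, Ngp, Np4 and the erythroid genes shown, SyMSC 1 for Elane and Mmp8, and SyMSC 1 the lowest for the mast cell and nerve genes and for the elastic fibre and sublining genes shown.

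Monocyte and macrophage genes differed less. Of 25 members 1 was at least 2-fold higher in SyMSC 1 and 21 had a difference above 0 (median 0.31, 0.18 in the PBS pair). That 1 was Clec4d, a lectin receptor that pairs with Clec4e, at 64.9 TPM in AdMSC 1 and 172 TPM in SyMSC 1, beside 4.31 TPM in PBS 1 and 5.86 TPM in PBS 2 (difference 1.39, PBS pair 0.37). Lyz2, the lysozyme gene, was the most abundant gene in both injected libraries, at 19301 and 27210.4 TPM in AdMSC 1 and SyMSC 1, beside 8163 and 9237 TPM in PBS 1 and PBS 2 (difference 0.5, PBS pair 0.18). Resident synovial macrophage genes (17 members) had a median of -0.01, and none was 2-fold apart. Cx3cr1, a receptor of lining macrophages, stood at 92.7 and 68.9 TPM in AdMSC 1 and SyMSC 1, beside 4.4 and 7.15 TPM in PBS 1 and PBS 2 (difference -0.42, PBS pair 0.59). Cd163, a hemoglobin scavenger receptor, stood at 9.55 and 11.4 TPM in AdMSC 1 and SyMSC 1, beside 13.4 and 19.6 TPM in PBS 1 and PBS 2 (difference 0.24, PBS pair 0.52). With both sources Cx3cr1 thus stood above PBS, as did Folr2 and Siglec1, whereas Cd163 and Vsig4 stood below it. Whether Cx3cr1 marked resident cells here was not tested. In the lipid-associated macrophage list (18 members, median -0.01), Spp1, the osteopontin gene, stood at 10022 TPM in AdMSC 1 and 6402 TPM in SyMSC 1, beside 207 TPM in PBS 1 and 193 TPM in PBS 2 (difference -0.65, PBS pair -0.1). Spp1 was therefore high with both sources and somewhat lower in SyMSC 1, whereas Plin2, a lipid droplet coat protein, was higher there (difference 0.79, PBS pair 0.22). Under median-ratio scaling, which shifts the injected difference by 0.08, the medians of the resident and lipid-associated lists were above 0.

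Antigen presentation and lymphoid genes were slightly higher in SyMSC 1. The MHC class II genes RT1-Da, RT1-Ba, RT1-Bb and RT1-Db1 had differences of 0.54, 0.50, 0.52 and 0.49 (PBS pair 0.27, 0.41, 0.25 and 0.55), and their invariant chain gene Cd74 of 0.51 (PBS pair 0.52). Cd74 and RT1-Db1 thus differed slightly more between the PBS libraries. RT1-DMa (0.09, PBS pair 0.6) and RT1-DMb (-0.08, PBS pair 0.14), which help to load peptides, were near level between the sources. Within that list Itgax, an integrin of dendritic cells and activated myeloid cells, was 2-fold apart, at 22.98 TPM in AdMSC 1 and 55.2 TPM in SyMSC 1, beside 7.25 TPM in PBS 1 and 3.22 TPM in PBS 2 (difference 1.23, PBS pair -0.97). T and NK cell genes had a median of 0.32 over 14 members, against -0.33 in the PBS pair, and 1 was at least 2-fold higher: Ncr1, an NK cell receptor, at 2.05 and 6.23 TPM in AdMSC 1 and SyMSC 1, beside 0.9 and 1.17 TPM in PBS 1 and PBS 2 (difference 1.25, PBS pair 0.19). Cd8a, the CD8 alpha chain, was near level between the sources, at 109 and 126 TPM in AdMSC 1 and SyMSC 1, beside 4.19 and 4.72 TPM in PBS 1 and PBS 2 (difference 0.2, PBS pair 0.14). RT1 genes have close copies, so their values are uncertain. Jaml (NCBI Gene ID 315610), an adhesion molecule of neutrophils and T cells that the lists did not hold, stood at 10.6 TPM in AdMSC 1 and 57.04 TPM in SyMSC 1, beside 1.56 TPM in PBS 1 and 2.41 TPM in PBS 2 (difference 2.33, PBS pair 0.41).

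Early response and NF-kB feedback genes were mostly higher in SyMSC 1. Of 22 early response transcription factor genes 3 were at least 2-fold higher and none lower (median 0.53, 0.42 in the PBS pair), beside 1.48% higher over all genes. Fos, a subunit of AP-1, stood at 278 TPM in AdMSC 1 and 635 TPM in SyMSC 1, beside 180.2 TPM in PBS 1 and 522 TPM in PBS 2 (difference 1.19, PBS pair 1.53). Dusp1, a phosphatase that ends MAP kinase signals, stood at 436 and 897 TPM in AdMSC 1 and SyMSC 1, beside 326 and 530.1 TPM in PBS 1 and PBS 2 (difference 1.04, PBS pair 0.7). For Fos the PBS pair lay farther apart than the injected pair and in the same direction. The NF-kB feedback list behaved otherwise: 17 of 19 members were above 0 (median 0.36), with a PBS median of -0.08, and none was 2-fold apart. Over all 10104 genes 3521 were above 0. Zc3h12a, a ribonuclease that degrades cytokine messages, stood at 20.8 and 38.4 TPM in AdMSC 1 and SyMSC 1, beside 8.63 and 11.7 TPM in PBS 1 and PBS 2 (difference 0.85, PBS pair 0.4), and Nfkbia, the inhibitor IkB alpha, at 109 and 154 TPM in AdMSC 1 and SyMSC 1, beside 83.8 and 93.9 TPM in PBS 1 and PBS 2 (difference 0.5, PBS pair 0.16).

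Interferon response genes had a median near 0 but held a few genes far apart. Of 29 members 4 were at least 2-fold higher in SyMSC 1 and none lower (median 0.07), beside 1.48% higher over all genes. In the PBS pair 5 were at least 2-fold lower in PBS 2 (median -0.45, 27 of 29 below 0). Between the injected libraries 19 members were above 0 and 10 below, and PBS 1 was the highest library for 18 of the 29. Ifit3 (NCBI Gene ID 309526), an RNA-binding antiviral protein, stood at 117 TPM in AdMSC 1 and 345 TPM in SyMSC 1, beside 30.2 TPM in PBS 1 and 13.99 TPM in PBS 2 (difference 1.55, PBS pair -1.06). Isg15, a ubiquitin-like modifier, stood at 21.5 TPM in AdMSC 1 and 44.8 TPM in SyMSC 1, beside 41.6 TPM in PBS 1 and 12.1 TPM in PBS 2 (difference 1.02, PBS pair -1.71). Mx1, an antiviral GTPase, stood at 4.79 and 7.35 TPM in AdMSC 1 and SyMSC 1, beside 21.3 and 5 TPM in PBS 1 and PBS 2 (difference 0.53, PBS pair -1.9). For Ifit3 both injected libraries were above PBS, whereas Isg15 was lowest in PBS 2 and Mx1 in AdMSC 1. Ifit and Oas genes have close copies and are uncertain.

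Mast cell genes formed the list with the lowest median. Of 11 listed genes 5 reached 5 TPM, all were below 0, 3 were at least 2-fold lower in SyMSC 1, and the median was -1.35 (0.41 in the PBS pair, all 5 above 0). With a pseudocount of 5 it was -0.97, under 2-fold. Over all 10104 genes 0.732% were at least 2-fold lower and 6570 were below 0. Cpa3, Tpsb2 and Tpsab1 reached 5 TPM in AdMSC 1 but not in SyMSC 1, so they entered through the library where they were higher. Mcpt1l1 (NCBI Gene ID 100360872), a mast cell protease gene, stood at 126 TPM in AdMSC 1 and 24.8 TPM in SyMSC 1, beside 279 TPM in PBS 1 and 288 TPM in PBS 2 (difference -2.3, PBS pair 0.05). Cpa3 (NCBI Gene ID 54242), the granule carboxypeptidase, stood at 15.3 TPM in AdMSC 1 and 4.1 TPM in SyMSC 1, beside 23.4 TPM in PBS 1 and 23.9 TPM in PBS 2 (difference -1.67, PBS pair 0.03). Cma1 (NCBI Gene ID 25627), the chymase gene, stood at 15.6 TPM in AdMSC 1 and 5.53 TPM in SyMSC 1, beside 30.6 TPM in PBS 1 and 41.6 TPM in PBS 2 (difference -1.35, PBS pair 0.43). For all 3 the PBS libraries were high and within 2-fold of each other, AdMSC 1 was lower and SyMSC 1 the lowest. The tryptase genes Tpsb2 (-0.94, PBS pair 0.54) and Tpsab1 (-0.47, PBS pair 0.41) differed in the same direction by less than 2-fold. Summed over the list the level was 178 TPM in AdMSC 1, 47.5 TPM in SyMSC 1, 382 TPM in PBS 1 and 415 TPM in PBS 2. Of the 6 listed genes below 5 TPM, 5 were below 0 and Fcer1a above: the stem cell factor receptor gene Kit stood at 2.34 TPM in AdMSC 1 and 1.28 TPM in SyMSC 1 (difference -0.55, PBS pair 0.19), and Gata2, a transcription factor of mast cells, at 3.64 and 2.73 TPM (difference -0.31, PBS pair -0.16). Mcpt1l1 makes up most of the sum and has similar copies, so its value is uncertain.

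The promoters of the 3 mast cell genes that were at least 2-fold lower are shown in the same form, with capitals for the GATA motif, searched on both strands as GATAA after an A or a T. GATA factors are needed for mast cell development.
Mcpt1l1, chr15:33876896-33877145, minus strand: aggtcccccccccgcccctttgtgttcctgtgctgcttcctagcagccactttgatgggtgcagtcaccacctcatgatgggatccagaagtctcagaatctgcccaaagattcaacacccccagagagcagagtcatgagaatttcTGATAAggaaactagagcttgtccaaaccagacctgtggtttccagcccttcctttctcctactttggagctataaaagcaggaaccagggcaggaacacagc
Cma1, chr15:33390134-33390383, minus strand: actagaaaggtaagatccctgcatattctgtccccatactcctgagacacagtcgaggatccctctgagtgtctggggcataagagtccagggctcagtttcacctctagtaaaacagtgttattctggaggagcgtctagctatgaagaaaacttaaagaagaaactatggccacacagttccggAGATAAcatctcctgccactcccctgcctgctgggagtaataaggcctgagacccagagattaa
Cpa3, chr2:104673238-104673487, minus strand: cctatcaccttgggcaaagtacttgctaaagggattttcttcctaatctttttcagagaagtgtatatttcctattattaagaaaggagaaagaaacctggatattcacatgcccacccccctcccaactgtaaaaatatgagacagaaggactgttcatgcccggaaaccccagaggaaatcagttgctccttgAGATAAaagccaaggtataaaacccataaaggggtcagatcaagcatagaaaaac
The motif was found in all 3, with matches that begin 103, 64 and 55 bases before the start. Among all 27457 promoters 16.6% held it, and 8.60% of the 8116 promoters of genes in the comparison. The motif is short, and a match says nothing of the factor.

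Genes of the elastic fibre, of small leucine-rich proteoglycans and of sublining fibroblasts were lower in SyMSC 1. Of 23 proteoglycan and elastic fibre genes 8 were at least 2-fold lower and none higher, 22 were below 0, and the median was -0.56 (0 in the PBS pair). Counts below 0 here and in the lists that follow stand beside 6570 of all 10104 genes below 0. Mfap4 (NCBI Gene ID 287382), a microfibril protein, stood at 358 TPM in AdMSC 1 and 140.4 TPM in SyMSC 1, beside 3079.8 TPM in PBS 1 and 2872 TPM in PBS 2 (difference -1.34, PBS pair -0.1). Eln, the elastin gene, stood at 88.1 TPM in AdMSC 1 and 39.1 TPM in SyMSC 1, beside 460.4 TPM in PBS 1 and 563 TPM in PBS 2 (difference -1.15, PBS pair 0.29). Efemp1, a fibulin, stood at 14.2 TPM in AdMSC 1 and 4.16 TPM in SyMSC 1, beside 32.4 TPM in PBS 1 and 40.1 TPM in PBS 2 (difference -1.56, PBS pair 0.3). Each had its lowest level in SyMSC 1 and levels within 2-fold in the PBS libraries. Ogn, which encodes the proteoglycan osteoglycin, stood at 44.6 TPM in AdMSC 1 and 16.5 TPM in SyMSC 1, beside 438 TPM in PBS 1 and 314 TPM in PBS 2 (difference -1.38, PBS pair -0.48). Aspn, which encodes asporin, stood at 84.8 TPM in AdMSC 1 and 35.5 TPM in SyMSC 1, beside 629 TPM in PBS 1 and 328 TPM in PBS 2 (difference -1.23, PBS pair -0.94); here the PBS pair differed almost as much. For Ogn and Aspn too, AdMSC 1 lay between the PBS libraries and SyMSC 1. Mfap5 (-1.08, PBS pair 0.13) and Fbln2 (-1.02, PBS pair 0) were just past 2-fold as deposited and just under it under median-ratio scaling, as were Ccdc80 (-1.06, PBS pair -0.21) and Thbs4 (-1.07, PBS pair -0.91).

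Of 21 sublining fibroblast genes 20 were below 0, 4 at least 2-fold lower and 1 at least 2-fold higher (median -0.61, 0.08 in the PBS pair). Apod (NCBI Gene ID 25239), a lipid carrier of fibroblasts and nerve sheaths, stood at 44.6 TPM in AdMSC 1 and 9.33 TPM in SyMSC 1, beside 76.9 TPM in PBS 1 and 115 TPM in PBS 2 (difference -2.14, PBS pair 0.57). Sfrp2, a secreted Wnt modulator, stood at 19.7 TPM in AdMSC 1 and 7.82 TPM in SyMSC 1, beside 104 TPM in PBS 1 and 214 TPM in PBS 2 (difference -1.23, PBS pair 1.03), and was the one gene among them with a PBS difference past 2-fold in the other direction. The gene that was higher was C3, the central complement component, at 5.44 and 13.4 TPM in AdMSC 1 and SyMSC 1, beside 7.6 and 4.32 TPM in PBS 1 and PBS 2 (difference 1.16, PBS pair -0.69). Thy1, a surface marker of sublining fibroblasts, stood at 272 and 178 TPM in AdMSC 1 and SyMSC 1, beside 811 and 659.6 TPM in PBS 1 and PBS 2 (difference -0.61, PBS pair -0.3). Collagen chain genes were lower by less: 16 of 17 were below 0 and none was 2-fold apart (median -0.50, -0.34 in the PBS pair). Col3a1 stood at 3824 and 2699.6 TPM in AdMSC 1 and SyMSC 1, beside 10508 and 9810.3 TPM in PBS 1 and PBS 2 (difference -0.5, PBS pair -0.1). Wnt genes had a median of -0.47 over 11 members, with 2 at least 2-fold lower: Sfrp2 and Wisp2, the latter at 152 and 69.5 TPM in AdMSC 1 and SyMSC 1, beside 630.04 and 578 TPM in PBS 1 and PBS 2 (difference -1.12, PBS pair -0.12).

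Lining fibroblast genes were nearer to level (11 members, median -0.26, none 2-fold apart). Prg4, with levels given above, had a difference of -0.78 (PBS pair -0.06) and was the farthest apart of the list. Mmp3, stromelysin 1, stood at 2605 TPM in AdMSC 1 and 2608 TPM in SyMSC 1, beside 594 TPM in PBS 1 and 550 TPM in PBS 2 (difference 0, PBS pair -0.11). Mmp3 was higher with cells of either source than with PBS and equal between them. Among the other matrix metalloproteinase genes, Mmp12, the macrophage elastase, was lower in SyMSC 1, at 45.6 TPM in AdMSC 1 and 18.3 TPM in SyMSC 1, beside 23.7 TPM in PBS 1 and 10.1 TPM in PBS 2 (difference -1.27, PBS pair -1.15). Mmp13, a collagenase, stood at 118 TPM in AdMSC 1 and 174 TPM in SyMSC 1, beside 22.4 TPM in PBS 1 and 10.97 TPM in PBS 2 (difference 0.55, PBS pair -0.97). Mmp12 differed by nearly as much between the PBS libraries, and Mmp13 by more and in the other direction.

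A nerve gene and a mural cell gene were at least 2-fold lower in SyMSC 1 than in AdMSC 1. Schwann and nerve genes had 6 members, all below 0, with a median of -0.32 (0.16 in the PBS pair). Among them S100b, a calcium-binding protein of Schwann cells, stood at 26.8 and 17.8 TPM in AdMSC 1 and SyMSC 1, beside 199 and 243 TPM in PBS 1 and PBS 2 (difference -0.57, PBS pair 0.28), and Mbp, myelin basic protein, at 22.1 and 21.1 TPM in AdMSC 1 and SyMSC 1, beside 13.2 and 18.8 TPM in PBS 1 and PBS 2 (difference -0.06, PBS pair 0.48). Gap43, a growth cone protein also made by Schwann cells, stood at 27.1 TPM in AdMSC 1 and 7.81 TPM in SyMSC 1, beside 15.8 TPM in PBS 1 and 12.7 TPM in PBS 2 (difference -1.67, PBS pair -0.3). Gap43 was not on the nerve list, and its AdMSC 1 level was above both PBS libraries. Of the 11 nerve list genes below 5 TPM, 6 were below 0 and 5 above. Rgs5, a regulator of G protein signals in pericytes, stood at 166 TPM in AdMSC 1 and 73 TPM in SyMSC 1, beside 620.4 TPM in PBS 1 and 573 TPM in PBS 2 (difference -1.18, PBS pair -0.12), whereas the mural list as a whole had a median of -0.27 with Rgs5 as its 1 gene 2-fold lower. Endothelial genes (18 members) had a median of -0.03, which was above 0 under median-ratio scaling, and none was 2-fold apart. Selp, the P-selectin of activated vessels that captures leukocytes, had the largest difference among them, at 30.4 and 60.1 TPM in AdMSC 1 and SyMSC 1, beside 30.7 and 31.1 TPM in PBS 1 and PBS 2 (difference 0.96, PBS pair 0.01).

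Muscle and fat genes separated the PBS libraries more than the injected ones. Skeletal muscle genes had a median difference of 0.62 over 13 members, with 1 at least 2-fold higher in SyMSC 1, and a PBS median of -1.28. Their summed level was 219 TPM in AdMSC 1, 305 TPM in SyMSC 1, 3121 TPM in PBS 1 and 1124 TPM in PBS 2. Adipocyte genes had a median of 0.28 over 13 members, none 2-fold apart, and a PBS median of 1.63 with 10 at least 2-fold higher in PBS 2. Their sums were 776, 1010 and 1005 TPM in AdMSC 1, SyMSC 1 and PBS 1, and 3112 TPM in PBS 2. The PBS libraries therefore differed in marker levels of muscle, fat and blood by more than the injected pair did, and the part of such differences in the other gene groups was not tested.

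**Figure D4:**
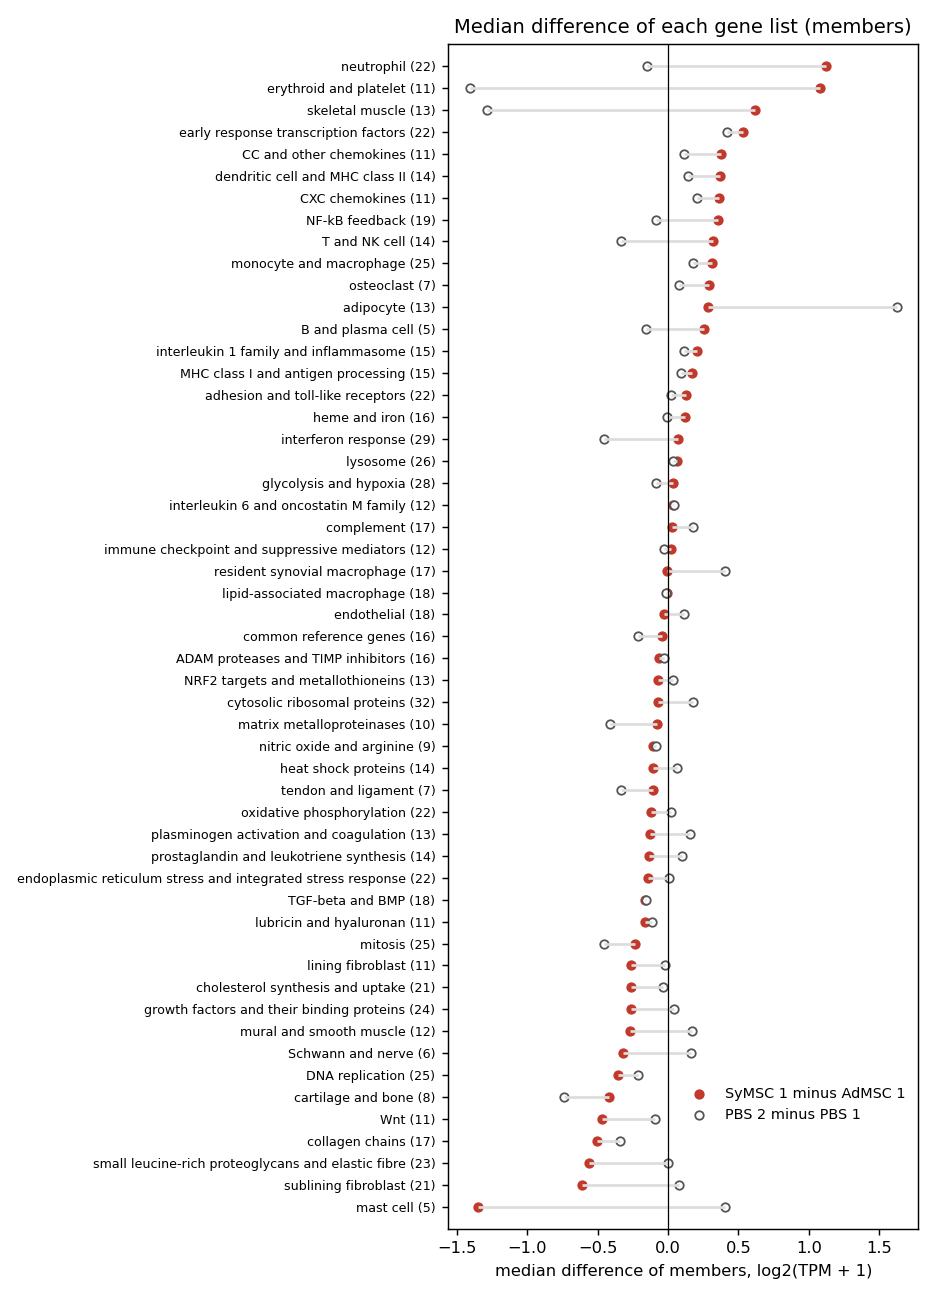
Median difference in log2(TPM + 1) over the members of each of 53 gene lists (rows, with the number of members), for SyMSC 1 minus AdMSC 1 (filled) and PBS 2 minus PBS 1 (open). Neutrophil and erythroid lists stand highest and the mast cell list lowest in the injected pair, most others lie within 0.5 of 0, and the erythroid, skeletal muscle and adipocyte lists lie farther from 0 in the PBS pair.

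Most lists had medians near that of all genes. Of the 53 lists with at least 5 members, 45 had a median under 0.5 in size, 18 held no gene 2-fold apart, and for 24 the sign of the median differed between the injected and the PBS pair. Proliferation genes were slightly lower in SyMSC 1, and most were lower in PBS 2 as well. All 25 DNA replication genes were below 0 (median -0.35, -0.21 in the PBS pair) and 23 of 25 mitosis genes (median -0.23, -0.45 in the PBS pair). None of them was 2-fold apart in the injected pair. Over all 10104 genes 6570 were below 0, and median-ratio scaling shifts every injected difference up by 0.08. Mki67, the proliferation antigen, stood at 41.5 and 33.4 TPM in AdMSC 1 and SyMSC 1, beside 13.8 and 8.12 TPM in PBS 1 and PBS 2 (difference -0.3, PBS pair -0.7). PBS 2 was below PBS 1 for 18 of the DNA replication genes and 24 of the mitosis genes. Cholesterol synthesis genes had a median of -0.26 over 21 members, ribosomal protein genes -0.07 over 32 (above 0 under median-ratio scaling), oxidative phosphorylation genes -0.12 over 22 and lysosome genes 0.07 over 26.

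Single stress genes stood out from lists near 0. Ddit3 (NCBI Gene ID 29467), the stress transcription factor CHOP, stood at 66.7 TPM in AdMSC 1 and 188 TPM in SyMSC 1, beside 48.4 TPM in PBS 1 and 45.9 TPM in PBS 2 (difference 1.48, PBS pair -0.07). Trib3, a target of that factor, stood at 4.6 and 11.04 TPM in AdMSC 1 and SyMSC 1, beside 1.32 and 0.57 TPM in PBS 1 and PBS 2 (difference 1.1, PBS pair -0.56). The list of endoplasmic reticulum and integrated stress response genes had a median of -0.14 over 22 members, and Asns, another target of that response, stood at 22.3 and 17.98 TPM in AdMSC 1 and SyMSC 1, beside 17.9 and 18.6 TPM in PBS 1 and PBS 2 (difference -0.29, PBS pair 0.05). Osgin1, an oxidative stress gene, was higher in SyMSC 1, at 11.6 and 33.5 TPM in AdMSC 1 and SyMSC 1, beside 3.28 and 4.72 TPM in PBS 1 and PBS 2 (difference 1.45, PBS pair 0.42), while Hmox1, heme oxygenase 1, was lower, at 1100.05 and 809 TPM in AdMSC 1 and SyMSC 1, beside 77.2 and 85.9 TPM in PBS 1 and PBS 2 (difference -0.44, PBS pair 0.15). In the glycolysis and hypoxia list (28 members, median 0.04) Pfkfb4, a regulator of glycolysis, was the 1 gene 2-fold apart, at 9.46 and 20.1 TPM in AdMSC 1 and SyMSC 1, beside 4.23 and 3.3 TPM in PBS 1 and PBS 2 (difference 1.02, PBS pair -0.28).

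Among the genes farthest apart were several that stood near 0 in at least 1 library. Brms1 (NCBI Gene ID 293668), a subunit of histone deacetylase complexes, stood at 27.6 TPM in AdMSC 1 and 0.07 TPM in SyMSC 1, beside 6.22 TPM in PBS 1 and 3.2 TPM in PBS 2 (difference -4.74, PBS pair -0.78). Ebna1bp2 (NCBI Gene ID 114021), a ribosome biogenesis factor, stood at 30.6 TPM in AdMSC 1 and 0.35 TPM in SyMSC 1, beside 7.05 TPM in PBS 1 and 1.9 TPM in PBS 2 (difference -4.55, PBS pair -1.47). Hprt1 (NCBI Gene ID 24465), a purine salvage enzyme often used as a reference gene, stood at 1.22 TPM in AdMSC 1 and 17.3 TPM in SyMSC 1, beside 26.1 TPM in PBS 1 and 10.3 TPM in PBS 2 (difference 3.04, PBS pair -1.26). For Brms1 and Ebna1bp2 AdMSC 1 was also above both PBS libraries. Hprt1 was low in AdMSC 1, while the other 15 common reference genes were within 2-fold in the injected pair. Casp6, an effector caspase, was listed at 0 in AdMSC 1 and stood at 6.94 TPM in SyMSC 1, beside 9.45 and 7.69 TPM with PBS. Ceacam4, of a family of cell adhesion molecules with similar copies, was listed at 0 in all libraries but SyMSC 1, where it stood at 9.69 TPM. Rabif, a small GTPase regulator, stood at 2.46 TPM in AdMSC 1 and 20.2 TPM in SyMSC 1, was listed at 0 in PBS 1 and stood at 20.8 TPM in PBS 2. Ppp1r35, a centrosome protein, was at 7.15 and 8.06 TPM in AdMSC 1 and PBS 1 and listed at 0 in SyMSC 1 and PBS 2. Such genes occurred in both pairs: 18 genes had at least 5 TPM in 1 injected library and under 1 TPM in the other (7 of them listed at 0), and 23 genes in the PBS pair (14 at 0). TPM without depth do not tell a failed estimate from absent transcripts.

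Cartilage and tendon genes gave mixed values. Chad (NCBI Gene ID 29195), chondroadherin of cartilage and tendon, had the highest difference above 0 of the genes with a symbol, and stood at 1.1 TPM in AdMSC 1 and 27.03 TPM in SyMSC 1, beside 57.1 TPM in PBS 1 and 16.3 TPM in PBS 2 (difference 3.74, PBS pair -1.74). Ucma, a cartilage matrix protein, stood at 1.04 TPM in AdMSC 1 and 9.62 TPM in SyMSC 1, beside 6.4 TPM in PBS 1 and 7.98 TPM in PBS 2 (difference 2.38, PBS pair 0.28). Acan, the cartilage proteoglycan aggrecan, stood at 15.2 TPM in AdMSC 1 and 6.59 TPM in SyMSC 1, beside 47.4 TPM in PBS 1 and 25.2 TPM in PBS 2 (difference -1.09, PBS pair -0.88). Chad and Ucma were thus lower in AdMSC 1 than in the other 3 libraries, and Acan was lowest in SyMSC 1, so these genes did not differ as a group. Thbs4, a matrix protein of tendon, stood at 162 TPM in AdMSC 1 and 76.2 TPM in SyMSC 1, beside 752 TPM in PBS 1 and 399.8 TPM in PBS 2 (difference -1.07, PBS pair -0.91).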

How the data were processed

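Messenger RNA of rat synovium was measured in 4 bulk libraries. Per the labels' protocols, RNA was captured with oligo-dT beads, primed at random, marked with dUTP in the second strand and sequenced on a BGISEQ-500. The authors deposited TPM with 2 decimals, per the file header, and each library sums to 1000000 over 17899 rat genes. HISAT2 2.0.4 and the build Rnor_6.0 are named in the submitters' processing notes. How reads were counted, on which annotation, with or without strand, and how reads of the human cells were set apart were not given in the sources used here, so rat values may include human reads. Values in TPM keep no depth, and where abundant genes take more of a library the TPM of the rest are lower.

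Differences of log2(TPM + 1) were computed with Python 3.11.15 and pandas 2.3.3 for genes with at least 5 TPM in either injected library, with no test. Gene lists (57, with 1131 entries, 1113 matched) and a further pair of lists for neutrophils were used, and the members and lists were chosen with earlier results of these data known. By rule, the genes named were the 15 highest and 15 lowest, the 10 in each direction with the largest TPM difference among those 2-fold apart, up to 4 members of each list, the 10 highest and 10 lowest of the injected minus the PBS difference, and a fixed set that includes Prg4, Tnf and Il10, together 240 genes, not all of which are printed; a few results are not reported here. Other genes named were chosen after their values were seen. Of the gene IDs, those with a promoter were matched to RefSeq (GRCr8). Alternatives were other pseudocounts, floors, scalings and folds, the injected minus the PBS difference, a floor in all libraries and the removal of neutrophil and erythroid genes; the last pair was added after the data were seen. The counting code was run on simulated data with planted differences, which does not show how reliable the counts are in these libraries.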

Additional observations from a re-analysis of the deposited data

Results flagged for a closer look

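For 11 of the genes named here the injected library and the PBS library of its title were at least 2-fold apart in opposite directions in the Sy-titled and the Ad-titled libraries. Over all genes of the comparison, 17 were at least 2-fold higher in SyMSC 1 than in PBS 2 and at least 2-fold lower in AdMSC 1 than in PBS 1, and 5 were the reverse. With 1 library on each side these differences were not tested. SyMSC 1 minus PBS 2 exceeded AdMSC 1 minus PBS 1, on the log2(TPM + 1) scale, by 4.55 for Slc4a1 and 3.75 for Ahsp, which are red cell genes. It exceeded it by 5.08 for Ngp, 4.25 for Defa5, 4.40 for Np4, 4.13 for RatNP-3b and 4.40 for Prg2, which are granule genes of neutrophils or eosinophils. It did so by 3.30 for Car2, a carbonic anhydrase of red cells and osteoclasts, and by 5.80 for Fam50a, a nuclear protein listed at 0 in PBS 2. In all of these PBS 1 was above PBS 2. The reverse held for Ebna1bp2 (-3.08) and Brms1 (-3.96), which were near 0 in SyMSC 1.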

How the results depend on the processing

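With a pseudocount of 5 the counts fell to 81 genes higher and 37 lower in SyMSC 1 and to 51 higher and 63 lower in PBS 2. A floor of 20 TPM gave 93, 39, 47 and 46 in the same order. At 1.5-fold the counts were 447, 316, 243 and 291, and at 3-fold 43, 17, 36 and 44. With a floor of 1 TPM the counts were 199, 109, 135 and 162, and with no floor 199, 109, 183 and 215. With no floor, and at 3-fold, the PBS pair thus held more genes past the mark than the injected pair. Taking the injected minus the PBS difference gave 136 genes lower. Under it 35 of the 240 genes named by rule changed sign, 7 of them among the 93 that were 2-fold apart: Rabif (-1.83), G0s2 (-0.31), Romo1 (-3.83), Cxcl2 (-0.35), Fos (-0.34), Fosb (-1.46) and Ppp1r35 (0.15). Another 19 of the 93 were then under 2-fold and 67 stayed past it. With a pseudocount of 5, 29 of the 93 fell under 2-fold, as did the medians of all 4 lists past it: neutrophil (0.96), erythroid (0.996), mast cell (-0.97) and eosinophil and basophil (0.94, 1 gene). The injected counts were within 1.5 times of those reported under median-ratio scaling (190 and 61), upper-quartile scaling (150 and 74), without the most abundant genes (178 and 85) and at a floor of 1 TPM in all 4 libraries (106 and 63). No paired analysis was possible because each group of the comparison has 1 library and the labels carry no replicate numbers; for the same reason no library could be left out. Depth is unknown, so the precision of low values is unknown.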

Other observations

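Gene groups of the vessel wall, complement, iron and eicosanoids added single genes to the picture. Of the toll-like receptor genes, Tlr5, the flagellin receptor, stood apart, at 3.88 TPM in AdMSC 1 and 13.8 TPM in SyMSC 1, beside 3.74 TPM in PBS 1 and 5.23 TPM in PBS 2 (difference 1.61, PBS pair 0.39), while Tlr2 was within 2-fold (difference 0.36, PBS pair 0.32). Complement genes had a median of 0.03 over 17 members: Cfp, properdin, a complement activator stored in neutrophils, stood at 57.7 and 119 TPM in AdMSC 1 and SyMSC 1, beside 34.1 and 36.2 TPM in PBS 1 and PBS 2 (difference 1.04, PBS pair 0.09), and Cfb, factor B of the same pathway, was lower (difference -0.81, PBS pair 0.15). In the heme and iron list (16 members, median 0.12) Tf, the transferrin gene, stood at 80.8 and 161 TPM in AdMSC 1 and SyMSC 1, beside 50.3 and 65.6 TPM in PBS 1 and PBS 2 (difference 0.99, PBS pair 0.38). Ptgis, prostacyclin synthase, stood at 6.32 and 1.41 TPM in AdMSC 1 and SyMSC 1, beside 5.14 and 4.85 TPM in PBS 1 and PBS 2 (difference -1.6, PBS pair -0.07), while Ptgs2, the inducible cyclooxygenase, stood at 24.7 and 33.3 TPM in AdMSC 1 and SyMSC 1, beside 3 and 2.94 TPM in PBS 1 and PBS 2 (difference 0.42, PBS pair -0.02).

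Growth factor genes split as well. Igfbp3, a carrier of insulin-like growth factors, stood at 30.03 TPM in AdMSC 1 and 13 TPM in SyMSC 1, beside 62.8 TPM in PBS 1 and 65.6 TPM in PBS 2 (difference -1.15, PBS pair 0.06), and Vegfa, the main angiogenic factor, at 86.97 and 146 TPM in AdMSC 1 and SyMSC 1, beside 24.2 and 29.6 TPM in PBS 1 and PBS 2 (difference 0.74, PBS pair 0.28). Id1, a target of BMP signals, stood at 103 and 205 TPM in AdMSC 1 and SyMSC 1, beside 107 and 115 TPM in PBS 1 and PBS 2 (difference 0.98, PBS pair 0.11). Of the 24 genes of growth factors and their binding proteins 18 were below 0 (median -0.26, 0.04 in the PBS pair), beside 6570 of all 10104 genes.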
